A study of Saccharomyces cerevisiae with 12 samples.

Results

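The serine biosynthesis genes of budding yeast were followed in 12 RNA-seq libraries, with *SER3*, its isozyme gene *SER33*, the later pathway genes *SER1* and *SER2*, the serine-degrading gene *CHA1* and the non-coding transcript *SRG1*. The 5 coding genes were chosen by systematic identifier (YER081W, YIL074C, YOR184W, YGR208W and YCL064C) and *SRG1* because its row held counts (99 to 371 in each library, 2353 over the 12 libraries). These are 6 of the 7126 rows of the count table, and all 6 passed the filter on low counts that left 6040 genes for testing. The group was put together with earlier results of these data known, so its p-values describe these libraries and are no independent evidence for the choice.

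The study asked how the elongation factor Spt4 acts upon osmostress, a sudden rise in salt that activates the stress kinase Hog1. Spt4-AA cells carried SPT4(T42A/S43A)-TAP::kanMX4, in which the residues phosphorylated by Hog1 are changed to alanine, and wild type cells carried SPT4-TAP::kanMX4. Both strains therefore had a TAP tag on Spt4 and the kanMX4 marker, and both were BY4741, a MATa strain with deletion alleles of *HIS3* (his3-delta 1), *LEU2* (leu2-delta 0), *MET17* (met15-delta 0) and *URA3* (ura3-delta 0). Cells were grown in rich YPD medium at 30 °C and taken after 15 min in 0.4 M NaCl or without stress, with 3 biological replicates per group. The groups were Spt4-AA upon osmostress, wild type upon osmostress, Spt4-AA without stress and wild type without stress. No serine was withheld or added in any group.

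Serine is made from the glycolytic intermediate 3-phosphoglycerate. The dehydrogenases Ser3 and Ser33 catalyse the first step, the aminotransferase Ser1 the next and the phosphatase Ser2 the last, while Cha1 deaminates serine and threonine and is known to be induced when these amino acids are supplied. In rich medium *SER3* is known to be held low by transcription of *SRG1*, which starts upstream of *SER3* and runs across its promoter, leaving nucleosomes there that depend on elongation factors such as Spt6, the FACT complex, Spt2 and the Paf1 complex. The activator Cha4 drives *SRG1* and *CHA1* in the presence of serine, and Gcn4 activates many amino acid synthesis genes upon starvation.

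In the R64 genome build, *SRG1* spans chromosome V, bases 322212 to 322762 on the plus strand, and *SER3* spans bases 322686 to 324095 on the same strand, as 1 coding exon without introns. These features share 77 bases, so *SRG1* runs from 474 bases before the first base of the *SER3* start codon to 76 bases after it. The shared bases are shown because a read that lies in them belongs to both rows, and how such reads were assigned is not given in the sources used here. They run from 322686 to 322762, with the *SER3* start codon in capitals:
shared by SRG1 and SER3: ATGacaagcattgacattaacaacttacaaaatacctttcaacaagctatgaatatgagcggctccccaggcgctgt

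The promoters of the 2 dehydrogenase genes are shown because their RNA levels responded differently to the mutation and to salt. Each window holds 250 bases before the start codon and 50 bases from it on, read 5′ to 3′ on the strand of the gene from the RefSeq R64 assembly. The *SER3* window (chromosome V, 322436 to 322735, plus strand) lies within *SRG1* over its whole length, and the *SER33* window (chromosome IX, 222441 to 222740, minus strand) overlaps no other annotated gene of this group. Capitals mark a match to TGACTC, the core that Gcn4 binds, which reads GAGTCA where the match is on the opposite strand:
SER3: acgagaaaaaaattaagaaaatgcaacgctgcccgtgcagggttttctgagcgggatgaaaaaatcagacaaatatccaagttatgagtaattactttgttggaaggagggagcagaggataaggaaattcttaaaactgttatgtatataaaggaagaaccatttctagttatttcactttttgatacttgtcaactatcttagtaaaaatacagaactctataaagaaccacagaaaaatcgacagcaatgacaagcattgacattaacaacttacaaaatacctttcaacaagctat
SER33: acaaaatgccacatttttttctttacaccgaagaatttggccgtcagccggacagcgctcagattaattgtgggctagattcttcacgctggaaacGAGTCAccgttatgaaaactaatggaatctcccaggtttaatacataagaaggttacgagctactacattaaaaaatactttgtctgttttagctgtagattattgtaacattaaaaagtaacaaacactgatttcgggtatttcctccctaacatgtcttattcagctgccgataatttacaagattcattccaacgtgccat

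TGACTC was present in 479 of 6001 promoter windows of this kind (8.0%), counting both strands. Among the serine genes it occurred in *SER33* (bases -154 to -149 from the start codon, opposite strand), *SER1* (-184 to -179) and *SER2* (-155 to -150, opposite strand). The windows of *SER3*, *SRG1* and *CHA1* held no match. AGGGG, the core of the stress response element, was in 1297 of the 6001 windows (21.6%) and in none of the 6. A match describes the letters of these windows only.

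**Figure D1:**
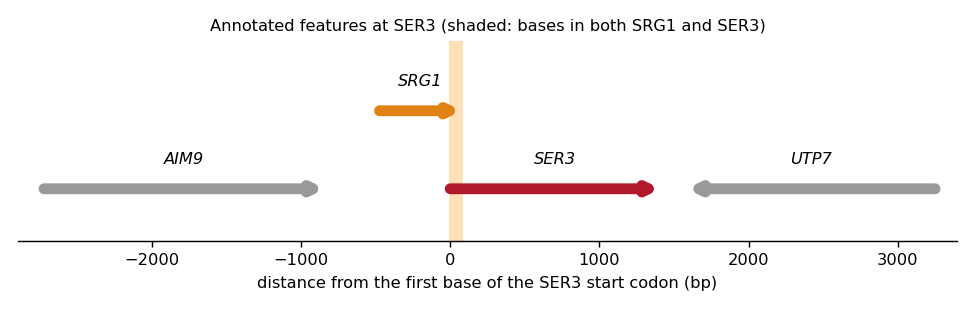
Annotated features around *SER3*, drawn to scale along the distance in bp from the first base of its start codon, with arrows in the direction of transcription. *SRG1* ends 76 bp inside *SER3* (shaded), *AIM9* lies upstream on the same strand and *UTP7* converges on *SER3* from the other side with a gap of 176 bp.

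The other coding genes each had 1 coding exon without introns. *SER33* lies on chromosome IX, 221081 to 222490, minus strand. *SER1* lies on chromosome XV, 679357 to 680544, plus strand, and *SER2* on chromosome VII, 911883 to 912812, plus strand. *CHA1* lies on chromosome III, 15798 to 16880, minus strand. Translated from R64, Ser3 and Ser33 were identical at 426 of 469 residues (90.8%), and their coding sequences at 1166 of 1412 aligned bases (82.6%). Reads of 50 bases could still tell them apart over nearly their whole length, since 1350 of 1361 stretches of 50 bases (99.19%) in each gene occurred once in the genome, as did every such stretch of the other 4 features.

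The libraries held 12903162 to 21909524 counts on genes, and replicates of a group differed by more than sampling noise (6.313 to 127.9 times the chi-square expected from counting). The highest values were for replicate 3 of Spt4-AA upon osmostress against replicates 1 and 2 of that group (72.09 and 127.9). Replicate 2 of Spt4-AA upon osmostress also held 139 counts on *LEU2*, *MET17* and *URA3*, genes that the strain background lacks, against at most 2 in each of the other 11 libraries. Replicates 1 and 2 of Spt4-AA upon osmostress carried library numbers apart from the other 10. Without replicate 2 or without replicate 3 of Spt4-AA upon osmostress, every serine gene kept its direction in the comparisons that use them, and the calls that changed were those of *SER1* in the Spt4-AA response (lost without replicate 3, adjusted p = 0.0945), of *SER33* and *SER1* in the difference in response (lost without replicate 2, adjusted p = 0.0516 and 0.0578) and of *SER2* there (gained without replicate 3, adjusted p = 0.0445). *SPT4* itself had 9.79 ± 1.93 CPM in Spt4-AA and 14.9 ± 2.30 CPM in the wild type without stress (SD, n = 3 each; log2 fold change -0.61, adjusted p = 0.259), and read counts cannot show the changed residues.

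Values are given as normalized CPM, counts scaled to a common library size with TMM factors. A gene was called at an adjusted p under 0.05 by the quasi-likelihood test of edgeR, adjusted over 6040 genes by Benjamini-Hochberg. Fold changes are relative to the bulk of genes: with library totals alone the median of all genes moved to 0.16 in the Spt4-AA response and 0.38 in the wild type response (log2), and to -0.81 and -0.49 with scaling to *ENO1*, the loading control of the study's blots. Between the strains upon osmostress, 1466 genes were called higher and 1413 lower in Spt4-AA, against 918 and 1815 with library totals alone and 582 and 1382 with scaling to *ENO1*. In RNA from whole cultures, a change in every cell and a change in a share of the cells cannot be told apart.

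*SER3* was about 2 times as abundant in Spt4-AA as in wild type cells without stress, and was the member that separated the strains most. It had 133, 148 and 148 CPM in Spt4-AA without stress, against 68.6, 66.5 and 65.4 CPM in the wild type without stress. The lowest Spt4-AA library was well above the highest wild type library, and libraries did not overlap for 16.4% of all genes. The fold change was 2.14 (log2 1.09 ± 0.084 SE, adjusted p = 9.68e-06, edgeR), and it stayed called in each of the 12 fits that left out 1 library (adjusted p 1.94e-06 to 0.000175). Only 0.828% of genes were called in this comparison, 16 higher and 34 lower in Spt4-AA (24 and 33 with library totals alone), and *SER3* had the 10th largest log2 fold change of the 16 and the second smallest p of all genes tested.

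Upon osmostress *SER3* was also higher in Spt4-AA. It had 113, 126 and 114 CPM in Spt4-AA upon osmostress, against 75.9, 70.0 and 69.4 CPM in the wild type upon osmostress. The libraries did not overlap, as was true for 50.5% of all genes in this comparison. The fold change was 1.64 (log2 0.71 ± 0.084 SE, adjusted p = 1.36e-05, edgeR). It was 0.66 on the log2 scale without replicate 2 of Spt4-AA upon osmostress and 0.74 without replicate 3, called in both, and 0.39 with scaling to *ENO1*, not called (adjusted p = 0.0758). Here 47.7% of genes were called, so a call in this comparison is common.

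With TMM scaling the response of *SER3* to salt was called as different between the strains, but not under every alternative. In Spt4-AA cells it fell by 0.28 ± 0.083 on the log2 scale upon osmostress (adjusted p = 0.00809, edgeR), the 3 libraries upon osmostress lying below the 3 without stress. With library totals alone this fall was not called (log2 -0.13, adjusted p = 0.241). In wild type cells the libraries upon osmostress lay just above those without stress, the change was 0.10 ± 0.084 (adjusted p = 0.293), and its direction depended on the scaling (0.44 with library totals alone and -0.43 with scaling to *ENO1*, both called). Over all genes, libraries with and without salt did not overlap for 69% in Spt4-AA and for 74.8% in the wild type. The difference in response, Spt4-AA minus wild type, was -0.38 ± 0.12 (adjusted p = 0.0293). It was no longer called in 6 of the 12 fits that left out 1 library (adjusted p 0.0193 to 0.0785), nor with a term for the 2 libraries with separate numbers (-0.43, adjusted p = 0.0517). Scaling to *ENO1* also ended the call (-0.69, adjusted p = 0.0833). From high to low, the mean level of *SER3* was 143 ± 8.28 CPM in Spt4-AA without stress, 118 ± 7.19 in Spt4-AA upon osmostress, 71.7 ± 3.58 in the wild type upon osmostress and 66.9 ± 1.64 in the wild type without stress (SD, n = 3 each). The 2 wild type groups were the only neighbours in this order that did not differ by test.

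**Figure D2:**
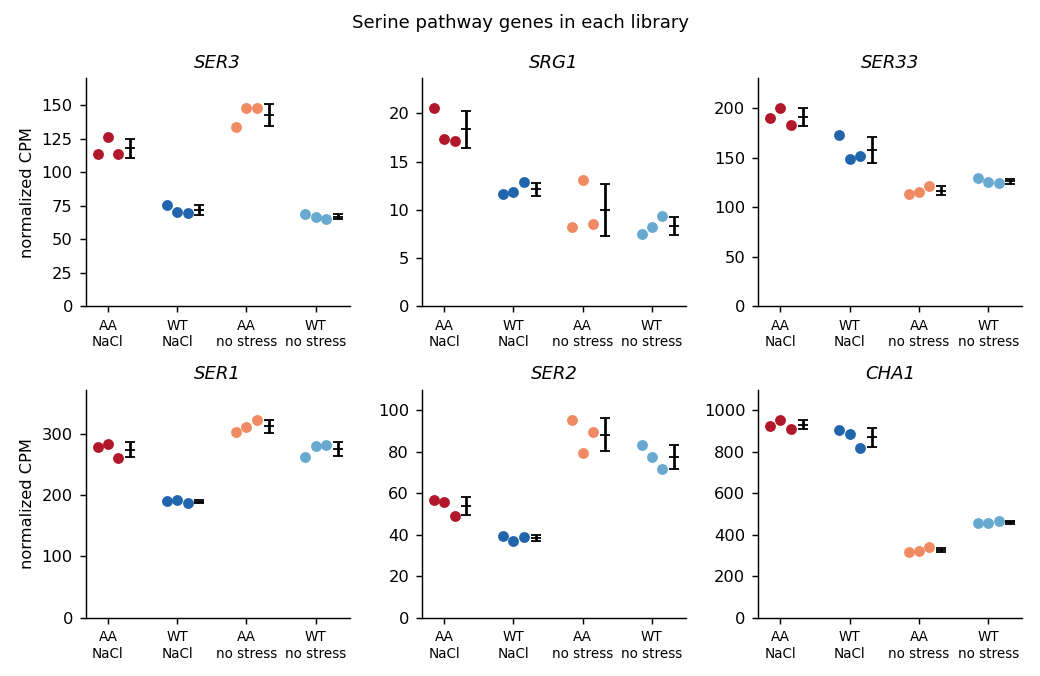
Normalized CPM of the 6 rows in each library (points), with the mean and SD of each group of 3 (bars), for Spt4-AA (AA) and wild type (WT) upon osmostress and without stress. In each condition the Spt4-AA libraries of *SER3* lie above those of the wild type. Strains did not overlap for 16.4% of all genes without stress and 50.5% upon osmostress. Within each strain, the libraries upon osmostress lie above those without stress for *CHA1*, *SER33* and *SRG1* and below them for *SER2* and *SER1*, with TMM scaling. Within a strain, libraries with and without salt did not overlap for 69% of all genes in Spt4-AA and 74.8% in the wild type.

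**Figure D3:**
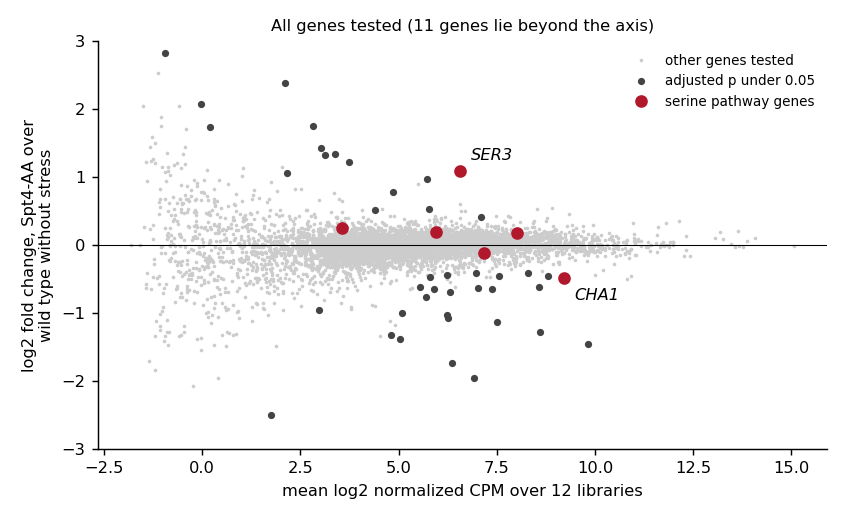
Log2 fold change of Spt4-AA over wild type without stress against the mean log2 normalized CPM over 12 libraries, for the genes tested within the axis (11 genes lie beyond it). Called genes are dark and the serine genes red: *SER3* (1.09) and *CHA1* (-0.49) were called, and the other 4 rows lay among the uncalled genes.

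*SRG1*, the non-coding transcript across the *SER3* promoter, was not called between the strains without stress and was higher in Spt4-AA upon osmostress. It had 8.28, 13.1 and 8.58 CPM in Spt4-AA without stress, against 7.47, 8.23 and 9.36 CPM in the wild type without stress. These libraries overlapped (log2 0.25 ± 0.18, adjusted p = 0.919). Replicate 2 of Spt4-AA was the highest of the 6. At 99 to 168 counts per library, the log2 value was 0.0077 without replicate 2 of Spt4-AA without stress and 0.38 without replicate 1, called in neither. Whether *SRG1* has a part in the level of *SER3* was not tested.

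Upon osmostress *SRG1* had 20.5, 17.4 and 17.1 CPM in Spt4-AA, against 11.7, 11.9 and 12.9 CPM in the wild type, without overlap, as for 50.5% of all genes. The fold change was 1.51 (log2 0.59 ± 0.17, adjusted p = 0.0112, edgeR). The call was lost without replicate 1 of Spt4-AA upon osmostress (adjusted p = 0.0502), with the term for the libraries with separate numbers (adjusted p = 0.143), with library totals alone (adjusted p = 0.121) and with scaling to *ENO1* (0.27, adjusted p = 0.39). *SRG1* rose upon osmostress in Spt4-AA by 0.88 ± 0.18 on the log2 scale (adjusted p = 0.000451) and in the wild type by 0.54 ± 0.18 (adjusted p = 0.0142). The wild type call was lost without replicate 1 of the wild type without stress (adjusted p = 0.0582), and neither rise was called with scaling to *ENO1* (0.054 and 0.022). Spt4-AA minus wild type, the responses differed by 0.34 ± 0.25, which was not called (adjusted p = 0.318).

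Per kilobase of the bases that each feature does not share, *SER3* exceeded *SRG1* in every library of these poly(A)-selected preparations. The ratio of *SER3* to *SRG1* counts per kb, which needs no scaling between libraries, was 1.96, 2.58 and 2.37 in Spt4-AA upon osmostress and 2.31, 2.1 and 1.91 in the wild type upon osmostress. Without stress it was 5.72, 4.01 and 6.12 in Spt4-AA, against 3.27, 2.87 and 2.48 in the wild type. The ratio was thus above that of the wild type in every Spt4-AA library without stress (log2 difference 0.86, exact two-sided permutation p = 0.1, the smallest that 3 against 3 libraries allow). Upon osmostress the strains overlapped (0.12, exact permutation p = 0.4). Upon osmostress against no stress the log2 ratio fell by 1.18 in Spt4-AA and by 0.44 in the wild type, without overlap in either strain (exact permutation p = 0.1 each).

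*SER33*, the other dehydrogenase gene, rose upon osmostress and did not share the difference of *SER3* between unstressed strains. Without stress it had 114, 115 and 122 CPM in Spt4-AA, against 129.5, 125 and 124 CPM in the wild type. Every Spt4-AA library was slightly below every wild type library, but the change was small (log2 -0.11 ± 0.083) and was not called (adjusted p = 0.93). Libraries of the strains did not overlap for 16.4% of all genes in this comparison.

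Upon osmostress *SER33* had 191, 200.2 and 183 CPM in Spt4-AA, against 173, 149 and 152 CPM in the wild type. It was higher in Spt4-AA (log2 0.27 ± 0.083, adjusted p = 0.0141, edgeR), but the sign turned with scaling to *ENO1* (-0.042), and the call was lost with library totals alone (0.067) with the term for the libraries with separate numbers (0.21, adjusted p = 0.183), with only the groups compared (adjusted p = 0.0722) and without replicate 2 or 3 of the wild type upon osmostress (adjusted p = 0.0708 and 0.0515). *SER33* rose upon osmostress by 0.71 ± 0.083 in Spt4-AA (adjusted p = 2.98e-06) and by 0.32 ± 0.083 in the wild type (adjusted p = 0.00286), except that with scaling to *ENO1* it read -0.13 and -0.21, both uncalled. The difference in response was 0.39 ± 0.12 (adjusted p = 0.0267) and lost its call in 8 of the 12 fits without 1 library (adjusted p 0.0123 to 0.0773). It was also not called with the term for the libraries with separate numbers (0.32, adjusted p = 0.134), with library totals alone (0.19, adjusted p = 0.282) or with scaling to *ENO1* (0.083, adjusted p = 0.819).

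*SER3* and *SER33* were also compared within each library. The ratio of *SER3* to *SER33* counts per kb was 1.24, 1.36 and 1.28 in Spt4-AA without stress, against 0.561, 0.563 and 0.557 in the wild type without stress. *SER3* was thus the more abundant isozyme RNA per kb in unstressed Spt4-AA cells, and *SER33* in unstressed wild type cells. Upon osmostress the ratio was 0.629, 0.666 and 0.659 in Spt4-AA, against 0.464, 0.497 and 0.483 in the wild type, so that *SER33* led in both strains. On the log2 scale the strains differed by 1.20 without stress and by 0.44 upon osmostress, and the ratio fell by 0.99 upon osmostress in Spt4-AA and by 0.22 in the wild type. No libraries overlapped in any of these 4 comparisons (exact two-sided permutation p = 0.1 each, the smallest possible). With the whole annotated length of *SER3*, a choice made after seeing the data, the mean ratio in unstressed Spt4-AA cells was 1.22, still above 1.

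**Figure D4:**
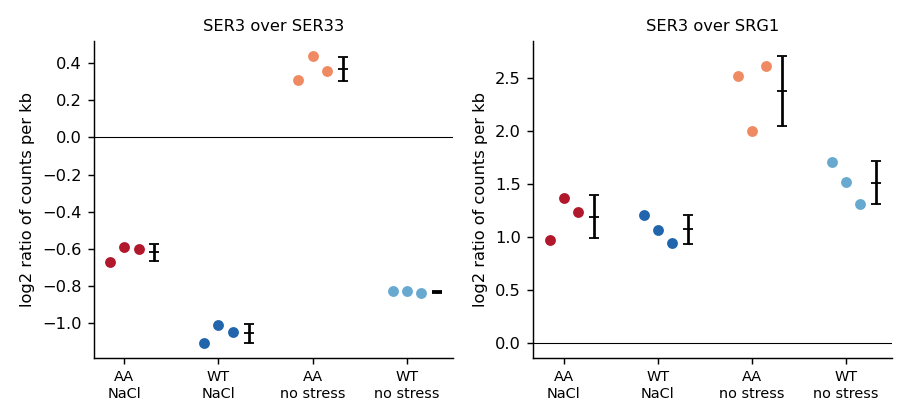
Log2 ratios of counts per kb within each library, *SER3* over *SER33* (left) and *SER3* over *SRG1* (right), with the mean and SD of each group of 3. *SER3* exceeds *SER33* (values above 0) in the 3 Spt4-AA libraries without stress and in no other library.

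The pathway genes after the dehydrogenases fell upon osmostress in both strains, *SER2* more than *SER1*, and both were higher in Spt4-AA than in the wild type upon osmostress. *SER1* had 278, 283 and 259.5 CPM in Spt4-AA upon osmostress, against 189, 192 and 186 CPM in the wild type upon osmostress. The libraries did not overlap, as for 50.5% of all genes (fold 1.44, log2 0.53 ± 0.079, adjusted p = 0.000103, edgeR). The value was 0.32 with library totals alone, still called, and 0.21 with scaling to *ENO1*, not called (adjusted p = 0.271). Without stress *SER1* had 302, 311 and 323 CPM in Spt4-AA, against 263, 279.9 and 282 CPM in the wild type. These libraries did not overlap, as for 16.4% of all genes, but the difference was not called (log2 0.18 ± 0.078, adjusted p = 0.564). In Spt4-AA *SER1* fell upon osmostress by 0.19 ± 0.078 (adjusted p = 0.0436), a call that was lost in 9 of the 12 fits without 1 library (adjusted p 0.0403 to 0.131), with library totals alone (-0.041) and with RLE size factors (adjusted p = 0.0617). With a replicate block it was -0.19 with an adjusted p of 0.0619. In the wild type *SER1* fell by 0.54 ± 0.079 (adjusted p = 2.18e-05). Its difference in response was 0.35 ± 0.11 (adjusted p = 0.0327), and its call was lost in 10 of the 12 fits (adjusted p 0.011 to 0.0843). The call was also lost with library totals alone (0.15, adjusted p = 0.339), scaling to *ENO1* (0.037, adjusted p = 0.915), the term for the libraries with separate numbers (0.27, adjusted p = 0.157) and RLE size factors (0.36, adjusted p = 0.054).

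*SER2*, which encodes the phosphatase of the last step, had the lowest mean level per kb of the coding genes upon osmostress (57.9 CPM in Spt4-AA and 41.4 CPM in the wild type). It had 56.8, 55.8 and 49.1 CPM in Spt4-AA upon osmostress, against 39.6, 37.1 and 38.7 CPM in the wild type upon osmostress. The groups did not overlap, as for 50.5% of all genes (fold 1.40, log2 0.49 ± 0.099, adjusted p = 0.0012, edgeR). The call was lost with scaling to *ENO1* (0.16, adjusted p = 0.506), with library totals alone (0.27, adjusted p = 0.0847) and with the term for the libraries with separate numbers (0.35, adjusted p = 0.0521). Without stress *SER2* had 95.6, 79.5 and 89.8 CPM in Spt4-AA, against 83.1, 77.5 and 71.9 CPM in the wild type, with overlap (log2 0.19 ± 0.097, adjusted p = 0.739). It fell upon osmostress by 0.71 ± 0.098 in Spt4-AA (adjusted p = 1.45e-05) and by 1.01 ± 0.099 in the wild type (adjusted p = 2.87e-07). Its difference in response, 0.30 ± 0.14, was not called (adjusted p = 0.129).

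*CHA1*, the serine and threonine deaminase gene, rose upon osmostress in both strains, from a lower unstressed level in Spt4-AA. It had 319, 322 and 340.0 CPM in Spt4-AA without stress, against 455, 456 and 467 CPM in the wild type without stress. All 3 Spt4-AA libraries were below all wild type libraries, where 16.4% of all genes did not overlap. *CHA1* was 1.40 times lower in Spt4-AA (log2 -0.49 ± 0.091, adjusted p = 0.0164, edgeR). This call was lost in 7 of the 12 fits without 1 library (adjusted p 0.00395 to 0.117), although the log2 fold change was -0.47 to -0.52 in them. Every fit that left out a library of either unstressed group lost the call (adjusted p 0.0632 to 0.117), and the fits that kept it left out a library upon osmostress. The call was also lost with RLE size factors (-0.47, adjusted p = 0.064) and with scaling to *ENO1* (-0.50, adjusted p = 0.361).

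Upon osmostress *CHA1* had 925, 956 and 911 CPM in Spt4-AA, against 906, 884 and 819.7 CPM in the wild type. The strains were close (log2 0.098 ± 0.09, adjusted p = 0.385), and the sign turned with library totals alone (-0.11) and with scaling to *ENO1* (-0.22). *CHA1* rose by 1.51 ± 0.092 on the log2 scale in Spt4-AA (2.85-fold, adjusted p = 2.16e-09) and by 0.92 ± 0.091 in the wild type (1.89-fold, adjusted p = 3.14e-07), and neither call was lost in any fit without 1 library. Its difference in response was 0.59 ± 0.13 (adjusted p = 0.00421), the largest among the 6 rows, and it was called in each of the 12 fits without 1 library (adjusted p 0.00107 to 0.0155) and with the term for the libraries with separate numbers (0.56, adjusted p = 0.0114). With scaling to *ENO1* it was 0.29 and not called (adjusted p = 0.366). Per kb, *CHA1* was at 859.3, 803, 301.8 and 423.9 CPM in Spt4-AA upon osmostress, wild type upon osmostress, Spt4-AA without stress and wild type without stress, in that order, above the means of the other 5 rows in every group.

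Over the 6 rows, 2 were called between the strains without stress, where 0.828% of genes were called. These were *SER3*, higher, and *CHA1*, lower, whose call was lost when any library of either unstressed group was left out. Upon osmostress 5 rows were called, all higher in Spt4-AA, where 47.7% of genes were called and 1466 of 6040 were called higher. With scaling to *ENO1* none of these 5 was called, and with library totals alone only *SER3* and *SER1* were. All 6 were called in the Spt4-AA response, 3 higher and 3 lower, where 68.3% of genes were called. In the wild type response 5 were called, 3 higher and 2 lower, where 70.3% of genes were called. The difference in response was called for 4 rows (*SER33*, *SER1* and *CHA1* positive, *SER3* negative), against 26.0% of genes. With TMM scaling, the median log2 fold change of the 6 rows was 0.51 between the strains upon osmostress, against -0.02 over all genes, and 0.19 without stress, against -0.0042. In the Spt4-AA and wild type responses it was 0.26 and 0.21, against 0.012 and 0.033 over all genes.

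**Figure D5:**
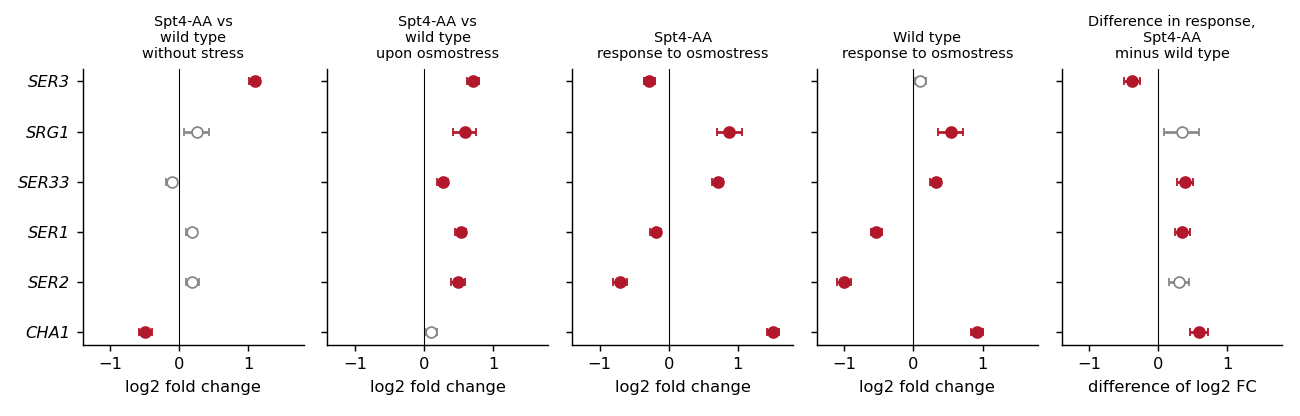
Log2 fold change ± SE of the 6 rows in each comparison and in the difference in response (edgeR with TMM scaling, filled red points called at an adjusted p under 0.05, open points not). *SER3* is the row with a higher level in Spt4-AA in both conditions and a negative difference in response, while *CHA1* has the most positive difference (0.59). With scaling to *ENO1* the sign turns for *SER33* in both responses and upon osmostress, for *CHA1* upon osmostress, for *SER3* in the wild type response and for *SER2* in the difference.

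The 2 genes next to the *SER3* locus were not called between the strains without stress. *AIM9*, upstream on the same strand with 365 bp to *SRG1*, had 76.4, 70.0 and 74.4 CPM in Spt4-AA without stress, against 74.9, 68.7 and 75.8 CPM in the wild type without stress. *UTP7*, a ribosome assembly gene that converges on *SER3*, had 69.1, 56.5 and 61.2 CPM in Spt4-AA without stress, against 62.3, 57.6 and 61.7 CPM in the wild type without stress. Both pairs of groups overlapped (log2 0.0096 and 0.043, each of which turned sign when 1 library was left out). Upon osmostress *UTP7* fell by 2.70 ± 0.11 on the log2 scale in Spt4-AA and fell by 3.32 ± 0.11 in the wild type. *AIM9* was lower in Spt4-AA than in the wild type upon osmostress (-0.43 ± 0.11, adjusted p = 0.00659), but was not called with the term for the libraries with separate numbers (-0.20, adjusted p = 0.291) or with scaling to *ENO1* (-0.71, adjusted p = 0.0504). The library kit keeps strand, but whether strand was used in counting is not given in the sources used here, and the part of neighbouring transcription in the counts of *SER3* was not tested.

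The genes whose profile over the 12 libraries was most like that of *SER3* were *DSF1* (YEL070W), *HUG1* (YML058W-A) and *CSS1* (YIL169C). Likeness was the root mean square difference of log2 normalized CPM, each gene centred on its mean over the 12 libraries, and it was 0.18, 0.232 and 0.248 for these genes against a median of 0.66 over 6039 genes. *DSF1* shares much of its sequence with another gene (41.51% of its stretches of 50 bases occur once in the genome, and 82.68% of those of *CSS1*), so their counts are uncertain. Of the serine genes, *SER1* was the most like *SER3* (0.36, 46th) and *CHA1* the least (0.887). For *SER33* the most alike were *YEA6* (0.0828), *MTC2* (0.0852) and *ALG6* (0.0974), against a median of 0.505, and *SER3* was at 0.545.

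Of 19 genes that use serine or glycine or carry one-carbon units, 9 were higher and 2 lower in Spt4-AA than in the wild type upon osmostress (median log2 0.16, against -0.02 over all genes). There 47.7% of all genes were called, 1466 of 6040 higher and 1413 lower. The counts and medians of this and the other lists are with TMM scaling. Between the strains upon osmostress, the median of all genes was -0.22 with library totals alone and -0.33 with scaling to *ENO1*. With the term for the libraries with separate numbers, 1460 genes were called there in place of 2879. The highest were *GLY1* (threonine aldolase, which makes glycine; 1.34 ± 0.15), *MIS1* (mitochondrial C1-tetrahydrofolate synthase; 1.06 ± 0.13) and *SHM1* (mitochondrial serine hydroxymethyltransferase; 0.73 ± 0.16). The 2 that were lower were *TSC3*, an activator of serine palmitoyltransferase (-0.46 ± 0.18), and *GCV1*, a subunit of glycine decarboxylase (-0.28 ± 0.091). Upon osmostress 6 of the 19 rose and 10 fell in Spt4-AA, against 6 that rose and 9 that fell in the wild type. In the 2 responses 68.3% and 70.3% of all genes were called (2020 and 2048 of 6040 lower). *AGX1*, which makes glycine from glyoxylate, rose by 3.06 ± 0.18 in Spt4-AA and by 3.03 ± 0.18 in the wild type. *MIS1* fell by 2.05 ± 0.13 in Spt4-AA and by 3.06 ± 0.14 in the wild type, a difference in response of 1.01 ± 0.18 (adjusted p = 0.00141). *GLY1*, which fell by 2.42 ± 0.15 in the wild type, had a difference in response of 1.36 ± 0.20 (adjusted p = 0.000311).

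Most other amino acid synthesis genes fell upon osmostress, as *SER1* and *SER2* did. Of 34 tested, 22 fell and 5 rose in the Spt4-AA response (median -0.75) and 26 fell and 3 rose in the wild type response (median -0.97), against medians of 0.012 and 0.033 over all genes, although with scaling to *ENO1* the rises of *ARG3*, *LYS1* and *ARG4* in Spt4-AA and of *ARG4* and *HIS5* in the wild type turned sign. In all genes, 2020 of 6040 were called lower in the Spt4-AA response and 2048 in the wild type response. Between the strains upon osmostress 25 were higher and 1 (*MET6*, methionine synthase, -0.36 ± 0.10) was lower in Spt4-AA, out of the 34. Their median was 0.51, against -0.02 over all genes, of which 47.7% were called and 1466 of 6040 were called higher. *LEU9*, which encodes an isopropylmalate synthase, was 1.42 ± 0.11 higher on the log2 scale, *ILV3*, of valine and isoleucine synthesis, 1.23 ± 0.14 and *PRO1*, of proline synthesis, 1.01 ± 0.10. The difference in response was called for 15 of the 34, all positive (median 0.44), against 26.0% of all genes, 905 positive and 663 negative (median -0.0073). Of 7 glycolysis genes around 3-phosphoglycerate, 5 were higher in Spt4-AA upon osmostress (median 0.67, against -0.02 over all genes, of which 1466 of 6040 were called higher), among them *ENO2* (enolase, 1.04 ± 0.21), *GPM1* (phosphoglycerate mutase, 0.79 ± 0.19) and *TDH2* (a glyceraldehyde-3-phosphate dehydrogenase, 0.73 ± 0.17).

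Of 18 genes for regulators of *SER3*, *SRG1* and *CHA1* or of the amino acid genes, 9 were lower and 1 was higher in Spt4-AA than in the wild type upon osmostress (median -0.40, against -0.02 over all genes). A call in this comparison is common (47.7% of all genes, with 1413 of 6040 called lower). The gene that was higher was *GCN4*, the activator of amino acid synthesis genes (0.63 ± 0.11, adjusted p = 0.000368), which fell by 1.46 ± 0.11 in the wild type response and had a difference in response of 0.73 ± 0.15. The lowest were *SPT6*, a histone chaperone (-0.88 ± 0.23), *SNF2*, the ATPase of the SWI/SNF remodeller (-0.86 ± 0.26), and *SPT5*, the partner of Spt4 (-0.75 ± 0.24). In the Spt4-AA response 13 of the 18 fell and 1 rose, against 4 that fell and 2 that rose in the wild type response, with the rises of *SPT3* in Spt4-AA and of *CDC73* in the wild type turning sign under scaling to *ENO1*. Over all genes 68.3% were called in the Spt4-AA response (2020 of 6040 lower) and 70.3% in the wild type response (2048 of 6040 lower). The difference in response was called for 6 of them (26.0% of all genes), 5 negative, among them *SPT5* (-1.05 ± 0.33), *PAF1* (-0.87 ± 0.29) and *POB3* of the FACT complex (-0.60 ± 0.20). Without stress, where *SER3* separated the strains, none of the 18 regulators, 19 users, 34 synthesis genes or 7 glycolysis genes was called by edgeR or by DESeq2. Only 0.828% of all genes were called there by edgeR, so the lack of calls in lists of this size is near that share. At an unadjusted p under 0.05 there were 1, 0, 4 and 0 genes of these lists, against 465 of the 6040 genes tested.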

How the data were processed

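Poly(A)-selected, strand-keeping libraries were sequenced with single-end reads of 50 bases. The authors mapped the reads to sacCer3 with TopHat2 2.1.0 and counted unique reads per gene with featureCounts 1.5.1 and the Ensembl R64 annotation, and per the submitters' notes used DESeq2 1.14.1. The deposited values are raw whole-number counts for 7126 genes in 12 libraries, with no normalization and no pooling, and groups were taken from the sample labels.

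Genes were kept by filterByExpr (6040 of 7126, and 179 had no count) and tested in R 4.3.3 with edgeR 4.0.16 (TMM, robust quasi-likelihood test, 1 coefficient for each of the 4 groups, common dispersion 0.0166, limma 3.58.1), with Benjamini-Hochberg adjustment and a threshold of 0.05. The scripts were tested on simulated data. Ratios within a library were compared by exact two-sided permutation tests. Levels per kb used the bases that *SER3* (1333) and *SRG1* (474) do not share. Names and positions came from RefSeq (6048 rows matched by locus tag).

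The members and gene lists were chosen with earlier results of these data known. Named are all members, and from each wider list up to 3 of the highest and 3 of the lowest log2 fold changes among called genes. *AIM9* and *UTP7* are named as neighbours, and the 3 genes most like *SER3* or *SER33* by profile. Alternatives were DESeq2 1.42.0, RLE factors, library totals, scaling to *ENO1*, a replicate block, no filter, a filter at 10 counts in each library, a term for the 2 libraries numbered apart, only the groups compared, a 2-fold limit, a pseudocount of 1 in the ratios, and each library left out. Same-numbered replicates did not deviate together throughout (correlations -0.4384 to 0.416), so the numbers were not taken as pairs. Between the unstressed strains these correlations were 0.416, 0.1158 and 0.01644. Those of replicate 2 were positive in every pair of groups (0.1143 to 0.3765).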

Additional observations from a re-analysis of the deposited data

Results flagged for a closer look

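For 4 of the 6 rows the difference in response to osmostress between the strains was called in the main fit (Spt4-AA minus wild type, edgeR with TMM scaling). It was -0.38 for *SER3* (adjusted p = 0.0293), 0.39 for *SER33* (adjusted p = 0.0267), 0.35 for *SER1* (adjusted p = 0.0327) and 0.59 for *CHA1* (adjusted p = 0.00421), in a comparison in which 26.0% of genes were called. *SER3* fell in Spt4-AA and was not called in the wild type, *SER33* and *CHA1* rose more in Spt4-AA than in the wild type with TMM scaling, and *SER1* fell less. Leaving out 1 library ended the call in 6, 8 and 10 of 12 fits for *SER3*, *SER33* and *SER1*, and in 0 of 12 for *CHA1*. With library totals alone the difference was 0.19 for *SER33* and 0.15 for *SER1*, and with scaling to *ENO1* 0.083 and 0.037, none of them called, while for *CHA1* it was 0.40 (called) and 0.29 (not called). For *SER3* it was -0.57 (called) and -0.69 (not called, adjusted p = 0.0833). With the term for the 2 libraries with separate numbers, *CHA1* stayed called, while *SER3* (-0.43, adjusted p = 0.0517), *SER33* and *SER1* did not.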

How the results depend on the processing

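Of 624 member results under alternatives, 540 kept their direction and side of the threshold, 75 lost a call, 2 gained one and 7 turned sign. Apart from scaling to *ENO1* (itself 0.89 higher upon osmostress in Spt4-AA and 0.53 in the wild type, log2), these were 527, 64, 2 and 1 of 594. With *ENO1* scaling *SER33* read -0.13 and -0.21 in the Spt4-AA and wild type responses and -0.042 between the strains upon osmostress, *CHA1* -0.22 there (-0.11 with library totals), *SER2* -0.021 in the difference in response, and *SER3* -0.43 in the wild type response (0.44 with library totals), 0.39 between the strains upon osmostress (adjusted p = 0.0758) and -0.69 in the difference (adjusted p = 0.0833). Other signs that turned with *ENO1* scaling were, in the Spt4-AA response, *AIM9* -0.36, *SPT3* -0.50, *ARG3* -0.061, *LYS1* -0.077, *ARG4* -0.23, *TDH1* -0.32 and *PGK1* -0.35, and in the wild type response *CDC73* -0.12, *ARG4* -0.15, *HIS5* -0.23 and *TDH1* -0.073. *AIM9* without stress was -0.0068 with library totals and -0.0046 with *ENO1* scaling. The Spt4-AA response of *SER3* was -0.13 with library totals, and its difference in response -0.43 with the term for the 2 libraries numbered apart. Leaving out 1 library gave *SER3* 1.07 to 1.14 without stress, 0.66 to 0.75 upon osmostress, and -0.43 to -0.34 in the difference, *AIM9* -0.035 to 0.043 and *UTP7* -0.04 to 0.11, both without stress. Genes called without stress numbered 50, against 77 by DESeq2, 80 with only those groups, 30 with *ENO1* scaling, 31 with at least 10 counts, 29 past 2-fold and 24 to 72 without 1 library. Upon osmostress 2879 became 1460 with the term for the 2 libraries and 661 past 2-fold (2301 to 3421 without 1 library), and in the difference 1568 became 550 with *ENO1* scaling, 866 with that term and 1175 to 2394 without 1 library, highest without replicate 3 of Spt4-AA upon osmostress. Past 2-fold, 1848 genes were called in the Spt4-AA response and 2234 in the wild type response. The replicate block changed 1 of 30 member calls (*SER1* in the Spt4-AA response, adjusted p = 0.0619) and gave *SER3* 1.09 without stress and 37 called genes there. Where a cause is not plain from fewer samples or genes, the cause was not tested. *SRG1* had 99 to 371 counts per library, which limits its precision (SE 0.17 to 0.25), and counting error is only part of the replicate spread.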
